A study of Rattus norvegicus with 2 samples.

Results

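Spliced new genes are loci on the authors' list of new genes that have at least 1 transcript model with 2 or more exons, so that the model contains at least 1 intron. They were found by reading the exons of every transcript of every listed locus, and 713 of the 1507 new genes (47.3%) met this rule. The other 794 new genes had single-exon models only. The whole annotation held 16678 genes, of which 12308 carried the name of a known gene. RNA came from femurs of female Wistar rats, genotype WT, whose ovaries had been removed on both sides (OVX) or left in place by sham surgery (SHAM). Per the labels there is 1 sample of each operation, both at 16 weeks, the former also marked old and the latter young. The methods name more sequenced rats and give a feeding time after surgery. The labels do not say whether 16 weeks is an age or a time after surgery, so these are not compared. The deposited files describe the series as a whole and hold no read count, expression value or coverage. Depth is therefore unknown from them, and no level of a new gene in OVX or SHAM could be computed.

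A transcript assembler joins overlapping reads on the genome into models of exons and introns. A model with an intron has reads aligned across a gap that is taken as a splice junction. A single-exon model can also come from unspliced precursor RNA or from genomic DNA. Transcribed loci outside an annotation are known to include long noncoding RNAs, unannotated ends of coding genes and members of large gene families, such as the immunoglobulin variable genes of marrow plasma cells.

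The genome of the files' own build was not used here, so the new genes have no sequence in this account. Sequence could be read for known genes beside them. In a head-to-head arrangement the new gene and its neighbour lie on opposite strands with their 5′ ends facing each other, so the promoter of the neighbour lies on the side of the new gene. Of the 19 spliced new genes in this arrangement within 1 kb, 11 had a neighbour with a RefSeq promoter (250 bases before to 50 bases after the gene start, build GRCr8, 5′ to 3′ in the direction of the named gene). Those of the 3 nearest neighbours and the one with most CpG are printed here, with each CpG dinucleotide in capitals.
Fes promoter, chr1:143756132-143756431, minus strand: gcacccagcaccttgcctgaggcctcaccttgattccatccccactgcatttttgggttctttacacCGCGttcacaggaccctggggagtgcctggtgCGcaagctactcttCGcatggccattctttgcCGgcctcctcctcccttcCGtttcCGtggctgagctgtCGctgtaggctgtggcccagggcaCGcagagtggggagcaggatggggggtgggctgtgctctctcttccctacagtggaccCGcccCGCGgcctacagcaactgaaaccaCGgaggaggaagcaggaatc
Med8 promoter, chr5:137233778-137234077, plus strand: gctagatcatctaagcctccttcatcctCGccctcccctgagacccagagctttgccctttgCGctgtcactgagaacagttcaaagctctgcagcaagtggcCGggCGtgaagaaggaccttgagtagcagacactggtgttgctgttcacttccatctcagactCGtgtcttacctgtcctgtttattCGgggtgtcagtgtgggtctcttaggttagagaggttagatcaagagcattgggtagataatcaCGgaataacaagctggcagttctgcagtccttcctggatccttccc
Pou2f2 promoter, chr1:89852017-89852316, minus strand: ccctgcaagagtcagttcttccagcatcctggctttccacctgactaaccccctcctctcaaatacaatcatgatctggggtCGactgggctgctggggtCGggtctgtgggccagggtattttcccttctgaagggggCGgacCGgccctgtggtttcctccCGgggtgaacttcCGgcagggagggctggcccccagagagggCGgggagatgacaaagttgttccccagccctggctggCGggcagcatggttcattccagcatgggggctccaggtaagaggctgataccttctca
Cfl2 promoter, chr6:78094839-78095138, minus strand: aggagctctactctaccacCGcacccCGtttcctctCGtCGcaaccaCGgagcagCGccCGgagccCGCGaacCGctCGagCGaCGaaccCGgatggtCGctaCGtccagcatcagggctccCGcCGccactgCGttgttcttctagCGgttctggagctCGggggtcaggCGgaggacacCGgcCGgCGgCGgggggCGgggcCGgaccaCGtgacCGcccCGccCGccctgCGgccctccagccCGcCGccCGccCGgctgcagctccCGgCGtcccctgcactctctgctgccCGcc

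Fes, a tyrosine kinase of myeloid cells, lay 144 bp from XLOC_000441, and Med8, a subunit of the Mediator complex, 181 bp from XLOC_006149. Pou2f2, a transcription factor of B cells, was 257 bp from XLOC_000246, and Cfl2, an actin-binding cofilin of muscle, was 526 bp from XLOC_006576. These distances are between the assembled models in the files' build, not in GRCr8. XLOC_006149 had 5 exons and the other new genes of these pairs had 2. XLOC_000246 was found in the second assembly and the other 3 in the first. The Cfl2 promoter held 40 CpG, against 13 in that of Fes, 8 in that of Pou2f2 and 7 in that of Med8. The GC box GGGCGG, searched on both strands, was present in 10 of the 11 promoters (90.9%), with Med8 the exception. It was present in 63.2% of the 6226 promoters of named genes of the annotation and in 34.5% of all 27457 promoters of the same length. The median CpG number was 21 in the 11 promoters, 21 in those of named genes and 7 in all. The GC box shares are set side by side without a test, and a match describes only the letters in this window.

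Most spliced new genes had the least possible number of exons. In 520 of them (72.9%) the largest model had 2 exons, in 129 (18.1%) it had 3, and in 64 (8.98%) it had 4 or more. Named genes with a spliced transcript (11523 genes) had a median of 5 exons, and 13.7% had 2 at most. The exon sequence of a spliced new gene, taken as the union over its transcripts, had a median of 294 bp (quartiles 243 and 410 bp, range 200 to 3262 bp). The single-exon new genes had a median of 321.5 bp and the spliced named genes 1562 bp. The minimum was exactly 200 bp in both sets of new genes, against 123 bp in spliced named genes. Whether a length limit at 200 bp shapes the medians of new genes was not tested. Exon sequence grew little with the first added exon, from a median of 278.5 bp with 2 exons to 314 bp with 3, and reached 526.5 bp with 4 or more. The span on the genome grew more, with medians of 840, 4833 and 7742 bp in these classes.

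Inner exons had a median of 111 bp (385 distinct exons), close to the 121 bp of inner exons of named genes. Only the 193 spliced new genes with 3 or more exons can have an inner exon, so this comparison leaves out the others. First exons had a median of 105 bp (806 distinct exons) and last exons 128 bp (797). First and last exons were not compared with those of named genes. An exon whose length is a multiple of 3 can be skipped without a shift of the reading frame. This held for 154 of the 385 inner exons (40%) and for 40.4% of inner exons of named genes. A single locus, XLOC_000683, contributed inner exons with repeated lengths of 27, 30, 33, 36 and 324 bp, all multiples of 3. The share without this locus was not computed, so the closeness of the shares may rest partly on it. An exon under 30 bp was found in 64 spliced new genes (8.98%), with the shortest inner exon at 17 bp.

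The new gene with the most exons, XLOC_001805 on chromosome 1 (199125156 to 199145730, minus strand), had 21 exons in 1 transcript that both assemblies contained. Positions here are those of the files, which do not name their genome build. Its first intron was 11740 bp and its second 1902 bp, whereas the next 18 ranged from 71 to 655 bp, and its last exon of 1271 bp held much of its 3150 bp of exon sequence. It lay 10438 bp downstream of Fbxl11 on the same strand, a gene now named Kdm2a that encodes a histone demethylase. The matched named genes at its sides were Pold4 and Kdm2a, between which the GRCr8 annotation lists Ssh3, Ankrd13d and Grk2 as coding genes. None of these 3 names is in the assembled annotation.

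XLOC_000683 on chromosome 1 (183549075 to 183638330, plus strand) had the most transcripts, 7 in number. The second assembly held 1 transcript of 18 exons over the whole locus. The first assembly held 6 shorter ones of 6 to 13 exons, of which 2 ended before the other 4 began, so that the same region was 1 chain in 1 assembly and separate pieces in the other. It overlapped a named locus (rCG_39603/rCG_47895) in span but not in exons. The GRCr8 genes listed between its flanks Htra1, a secreted serine protease, and C1h10orf88 include Dmbt1 and Cuzd1.

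XLOC_001141, also on chromosome 1 (51893150 to 51905162, minus strand), had 11 exons in the largest model of either assembly, and those models had 8 inner exons of 108 to 235 bp and 9 introns in common. XLOC_008166 on chromosome 7 (126478316 to 126482311, minus strand) packed 10 exons into 3996 bp with introns of 74 to 728 bp, and this transcript was in both assemblies. It ended 259 bp before a named locus on its strand, and the only GRCr8 gene between its matched flanks Prkag1 and Rhebl1 is Kmt2d, a histone H3 lysine 4 methyltransferase. XLOC_010599 on chromosome 10 (13670545 to 13680947, minus strand) had 10 exons in the first assembly and pieces of 6 and 3 exons in the second. XLOC_001359 on chromosome 1 (89281853 to 89287244, minus strand) had 5 transcripts of 5 or 6 exons, which differed by a skipped inner exon and by the ends of others. It lay 715 bp downstream of Pold1, the catalytic subunit of DNA polymerase delta, and the GRCr8 gene between Mybpc2 and Pold1 is Spib, an Ets factor of lymphoid cells. Whether these models are parts of the genes listed there was not tested.

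**Figure D1:**
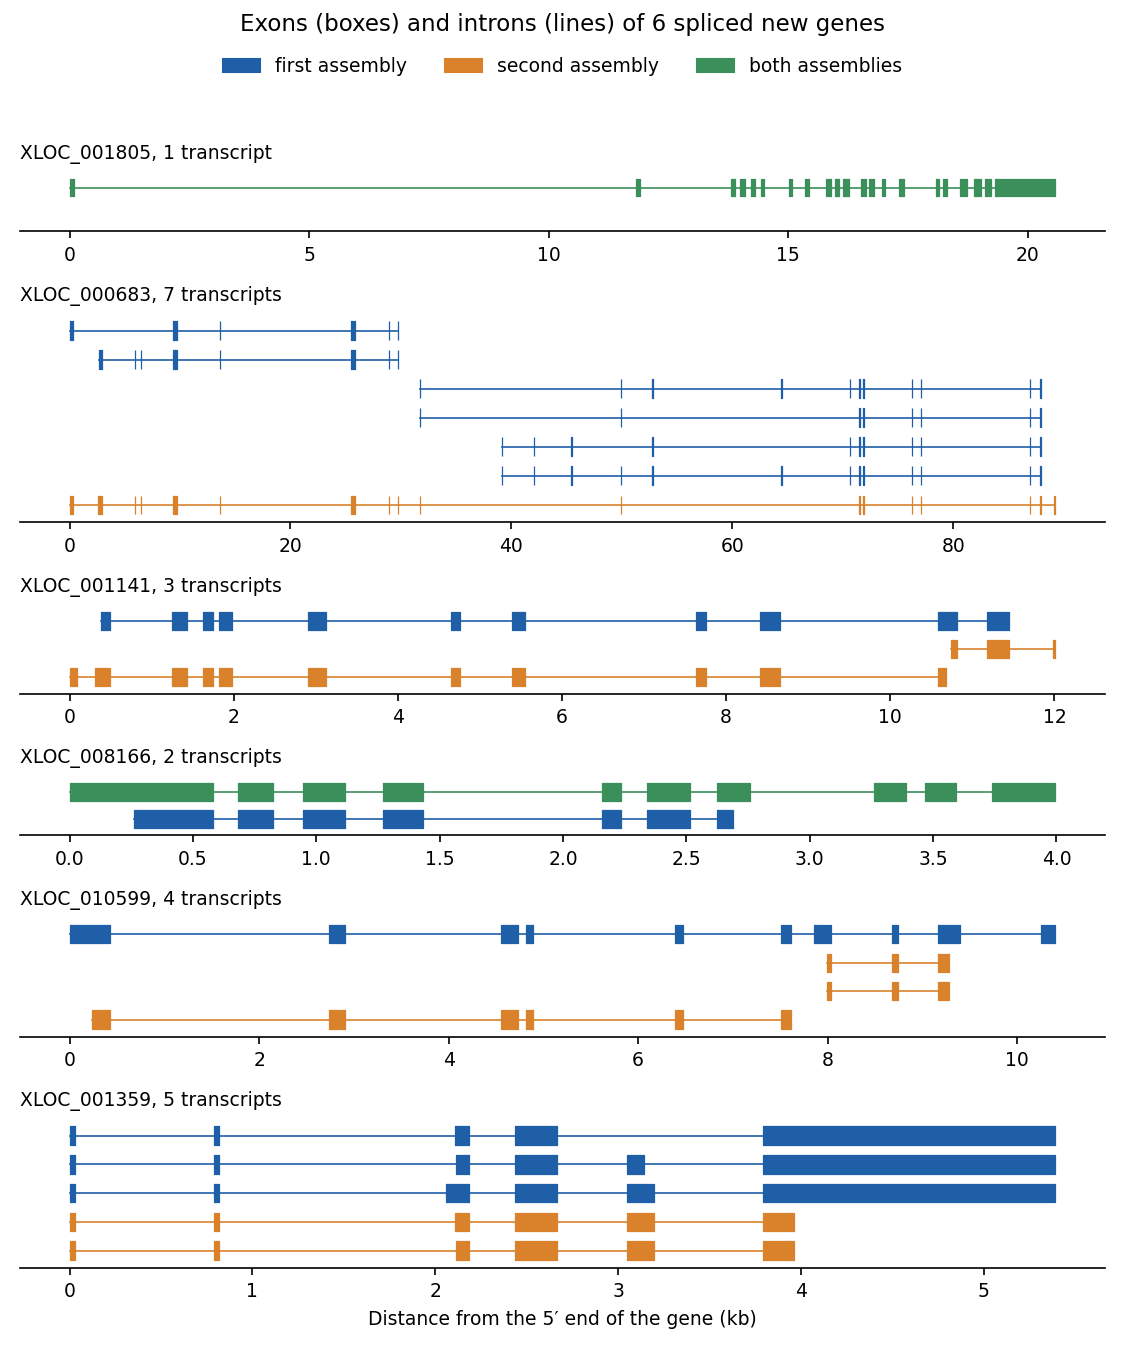
Exon and intron structure of the 5 spliced new genes with the most exons and of XLOC_001359, with 1 row per transcript, exons as boxes, introns as lines, and distance from the 5′ end of the gene in kb on a separate scale for each gene. Color gives the assembly: the 21 exons of XLOC_001805 are 1 transcript of both assemblies, while XLOC_000683 and XLOC_010599 are 1 long chain in 1 assembly and shorter pieces in the other.

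The transcripts of spliced new genes held 1142 distinct introns with a median length of 857 bp (quartiles 169 and 2862.5 bp, range 20 to 106819 bp). Named genes had 97544 distinct introns with a median of 1206 bp. Introns from 1000 to under 10000 bp were the largest class with 438 (38.4%), followed by those of 100 to under 1000 bp with 431 (37.7%), and 96 (8.41%) were 10000 bp or longer. Introns of 20 to 49 bp numbered 82 (7.18%), against 57 of 97544 (0.0584%) in named genes. The most frequent single length was 20 bp, the shortest present, with 15 introns. The shortest intron of named genes was also 20 bp, so this length may be a lower limit of the processing. Whether the gaps of 20 to 49 bp are splice junctions was not tested.

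Whether an intron was found in both assemblies went with its length. Of all introns of spliced new genes, 233 (20.4%) were in both, against 54.3% in named genes. Only 1 of the 82 introns of 20 to 49 bp (1.22%) was in both, whereas the share was 24.2% for 50 to 99 bp, 26.7% for 100 to under 1000 bp, 18.9% for 1000 to under 10000 bp and 11.5% for longer ones. In named genes the 57 introns of 20 to 49 bp were in both in 10.5% of cases, and those of 100 to under 1000 bp in 58.3%. The shortest and the longest introns were thus the least shared in each set, at a lower level in the new genes.

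**Figure D2:**
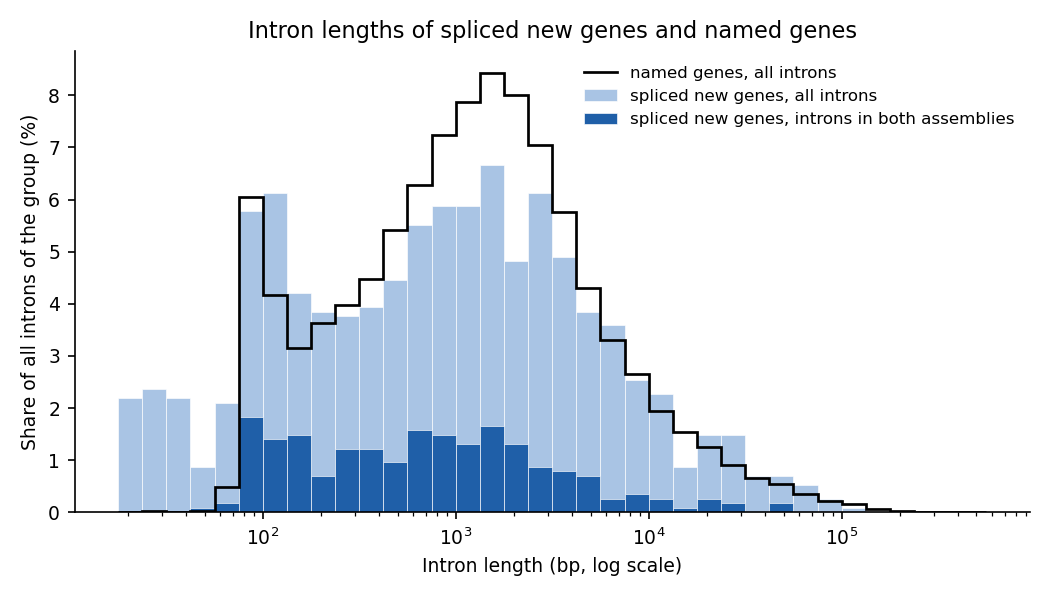
Intron length in bp on a log scale against the share of all introns of the group in %, for spliced new genes (light bars), their introns found in both assemblies (dark bars) and named genes (line). A block of introns from 20 to 49 bp (7.18%) appears in the new genes and is nearly missing from the dark bars, where 1 such intron is found, and from the named genes (0.0584%).

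In 74 spliced new genes (10.4%) every intron was under 50 bp, and all 74 had 2 exons. Introns of this size are rare in annotated mammalian genes. Transcripts of the repeat class, which lie mostly in masked repeats, occurred in 17 of the 74 (23.0%) and in 61 of the other 639 (9.55%). Presence in both assemblies was 6.76% (5 genes) and 21.8% (139 genes), respectively. Examples with the shortest intron of 20 bp were XLOC_000316 between Ankrd27 and Dpy19l3, 1703 bp tail to tail from Dpy19l3, XLOC_002104 on chromosome 2 and XLOC_004122 on chromosome 3, and each was in 1 assembly only. XLOC_004122 lay 34047 bp downstream of the locus of Grem1, an antagonist of bone morphogenetic proteins. At the other extreme, XLOC_003076 on chromosome 2 (203685355 to 203792437) joined 2 exons of 264 bp in total over an intron of 106819 bp, in the second assembly only. XLOC_009321 on chromosome 9 spanned 98661 bp with introns of 47694 and 50627 bp, upstream of a named locus between Raph1 and Nrp2, and its transcript of 3 exons was in both assemblies.

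Isoforms were few. Of the spliced new genes, 628 (88.1%) had a single transcript, against 26.1% of spliced named genes and 98.2% of single-exon new genes. The other 85 comprised 67 genes with 2 transcripts, 13 with 3, 3 with 4, 1 with 5 (XLOC_001359) and 1 with 7 (XLOC_000683). In 50 of the 85 at least 1 intron was common to different transcripts of the gene, and in 61 the transcripts were assigned to 2 or more start sites. Of the 85, 80 had transcripts from both assemblies, and 76 of these had no transcript that was itself shared. In 47 of the 76 the models of the assemblies had at least 1 intron in common, and in the others none. XLOC_010738 on chromosome 10 (43546202 to 43549375) is an example with 4 transcripts of 4 exons. Each assembly held 2 of them, of 699 and 761 bp in the first and 697 and 759 bp in the second. In 9 spliced new genes a single-exon transcript lay beside a spliced one, among them XLOC_009586 on chromosome 9, which had the longest exon sequence (3262 bp, 1 intron of 543 bp).

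The annotation records for each transcript whether it was found in 1 assembly or in both. It does not record which assembly. The first and second assembly were inferred from the order of the transcript numbers, and this inference was not checked against another source. Which rats entered each assembly is not stated, so neither stands for OVX or SHAM. Of the 825 transcripts of spliced new genes, 757 were found in 1 assembly and 68 (8.24%) in both. At the level of the gene, 313 (43.9%) had transcripts of the first assembly only, 256 (35.9%) of the second only and 144 (20.2%) of both. Of the 144, 68 had a transcript recorded in both, and 76 rest on the inferred numbering. The share in both was 7.81% for single-exon new genes and 78.3% for spliced named genes. Genes in both assemblies had a median of 459 bp of exon sequence, against 284 bp for the first only and 264.5 bp for the second only, and no gene of 1 assembly only had more than 6 exons. By definition, the 76 have different transcripts from each assembly, whereas most genes of 1 assembly have 1 transcript. The union of exons and the largest exon number can therefore be larger in genes of both assemblies partly by construction.

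The share in both assemblies went up with the number of exons in new and in named genes. It was 13.1% with 2 exons (68 of 520), 28.7% with 3 (37 of 129), 54.8% with 4 (17 of 31), 43.8% with 5 (7 of 16) and 88.2% with 6 or more (15 of 17). The step down at 5 exons rests on 16 genes. Exon number is that of the largest model, which is picked from more transcripts in many genes of both assemblies. Named genes went from 33.2% with 2 exons to 97.4% with 6 or more, and were above the new genes in each class. A whole transcript was shared by both assemblies in 9.42% of the new genes with 2 exons, 8.53% with 3, 9.68% with 4 (3 of 31), 6.25% with 5 (1 of 16) and 23.5% with 6 or more (4 of 17). In named genes this share was 22.6% at 2 exons and 34.7% at 6 or more.

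**Figure D3:**
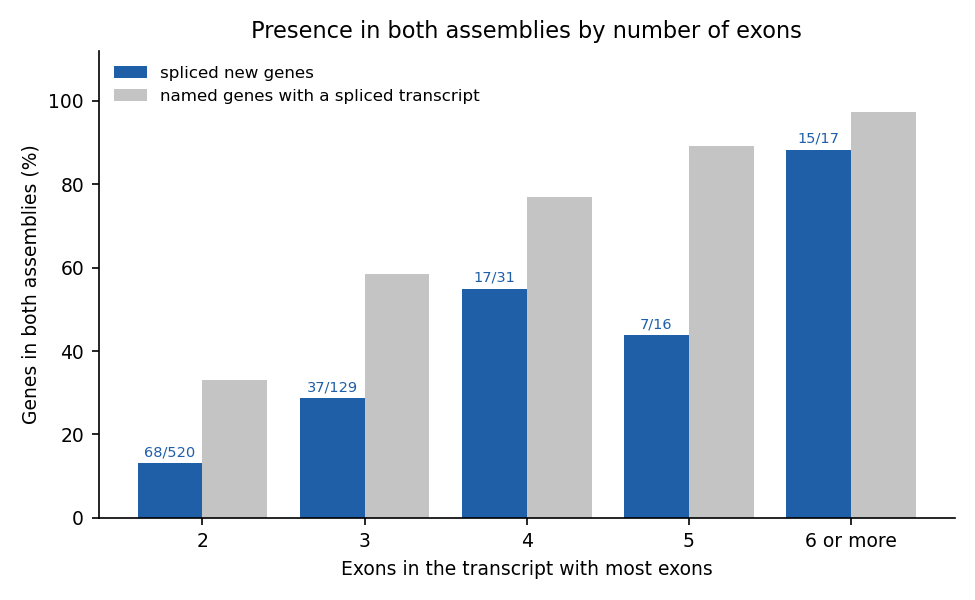
Share of genes with transcripts in both assemblies in %, by the number of exons in the largest model, for spliced new genes (blue, with the number in both over the number of genes) and named genes with a spliced transcript (grey). New genes are lower in each class, from 13.1% against 33.2% at 2 exons to 88.2% against 97.4% at 6 or more. Presence in both assemblies is partly inferred from the order of transcript numbers.

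The position of the new genes relative to named genes was examined next. A named gene overlapped 73 spliced new genes in span (10.2%), 34 on the same and 39 on the opposite strand, and 68 of them lay wholly inside it. Exons overlapped in only 6. All 825 transcripts of spliced new genes carry class u (741), for models that matched no known transcript, or the repeat class (84). Models classed by overlap with known exons, or as lying inside known introns, are not among them. Overlap in exons and in span was thus limited beforehand by the list. The remaining 640 had a median distance of 16997 bp to the nearest named gene (quartiles 4362.25 and 56108.8 bp, range 3 to 2038608 bp). Within 1 kb lay 72 of the 640 (11.25%), within 5 kb 174 (27.2%), within 10 kb 249 (38.9%) and within 100 kb 531 (83.0%). The nearest gene is the nearest one assembled in these femurs, since genes without a transcript model are not in the annotation.

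Among the 174 spliced new genes within 5 kb, 117 (67.2%) were on the strand of their neighbour. Of these, 62 lay upstream and 55 downstream of it. On the opposite strand 33 were head to head and 24 tail to tail. The single-exon new genes within 5 kb showed another pattern, with 97 of 289 (33.6%) on the strand of the neighbour and 163 (56.4%) tail to tail. Within 1 kb, only 2 of 83 single-exon new genes lay downstream on the same strand. Models near a named gene that were given another class are not on the list. How far this shapes the contrast of strands was not tested. Within 1 kb the spliced genes comprised 28 upstream, 21 downstream, 19 head to head and 4 tail to tail. Head-to-head genes lay closest, with a median of 621 bp among those within 5 kb, against 1093 bp upstream, 1628 bp downstream and 2859.5 bp tail to tail. The downstream genes were most often in both assemblies (21 of 55, 38.2%), followed by upstream (14 of 62, 22.6%), tail to tail (5 of 24, 20.8%) and head to head (5 of 33, 15.2%). These shares rest on small numbers. They are given without a test because loci are not replicates of a condition.

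**Figure D4:**
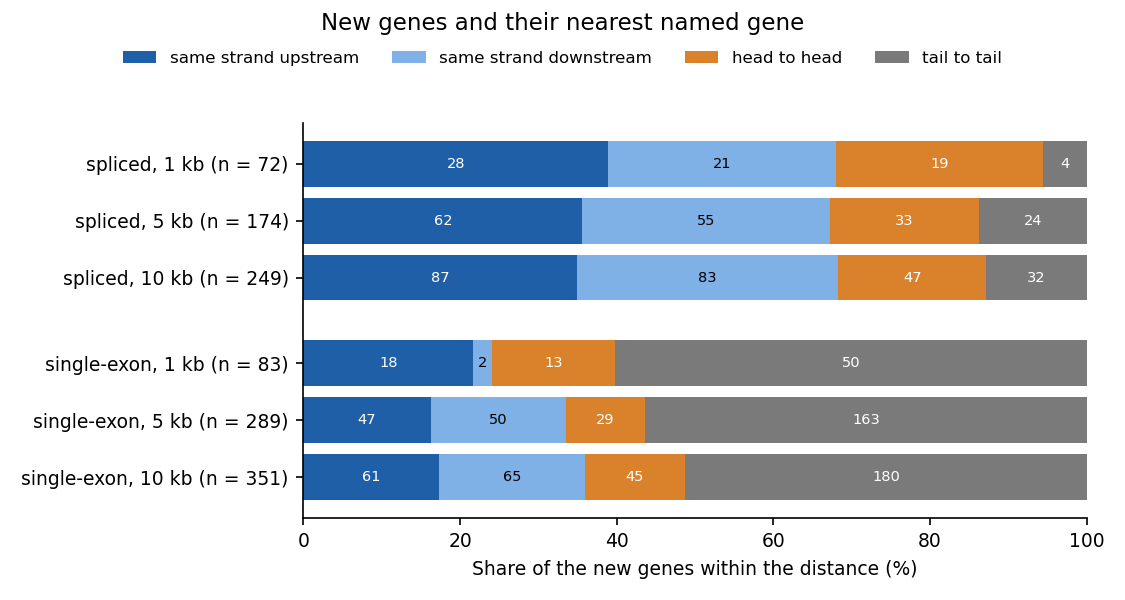
Arrangement of new genes relative to their nearest named gene, as a share in % of the new genes within 1, 5 or 10 kb, with numbers of genes in the bars. Spliced new genes are mostly on the strand of the neighbour (67.2% within 5 kb), and single-exon new genes are mostly tail to tail (56.4% within 5 kb). Models near a named gene that were given another class are not on the list, so the contrast may partly reflect how the list was made.

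The nearest pairs are named here. Upstream on the same strand, XLOC_013135 (chromosome 14) ended 3 bp before rCG_23275, XLOC_011149 (chromosome 10) 18 bp before rCG_34594, and XLOC_005855 (chromosome 5, 164512927 to 164514187, in both assemblies) 41 bp before Ssu72, a phosphatase that acts on RNA polymerase II. XLOC_002381 lay 67 bp before rCG_62443, and the GRCr8 gene between its matched flanks Syt11 and Msto1 is Gon4l. Downstream, XLOC_011411 (chromosome 11) began 6 bp after rCG_36691, XLOC_010926 (chromosome 10, in both assemblies) 62 bp after rCG_34330, and XLOC_003418 (chromosome 3) 69 bp after rCG_27170, in the place of Tnks1bp1 between Ssrp1 and Aplnr. XLOC_004471 on chromosome 4 (28051281 to 28052207) began 77 bp after rCG_41073 and lay between Col1a2, which encodes a chain of type I collagen, and Sgce. GRCr8 lists Casd1 as the coding gene there.

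Of the head-to-head pairs, XLOC_013837 (chromosome 15) was 7 bp from rCG_36990, XLOC_000482 (chromosome 1) 77 bp from rCG_36203, XLOC_000441 144 bp from the gene that is now Fes, and XLOC_009235 (chromosome 9) 175 bp from rCG_22336. Tail to tail, XLOC_000568 (chromosome 1) was 194 bp from Tmem9b, XLOC_002338 (chromosome 2) 280 bp from RGD1562174, XLOC_015389 (chromosome 19, in both assemblies) 285 bp from Prkaca, the catalytic subunit of protein kinase A, and XLOC_010554 (chromosome 10) 889 bp from RGD1359443. Names that begin with rCG are locus names without a symbol, and 7572 of the 12308 named genes (61.5%) matched a symbol of GRCr8.

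The overlapping new genes were spread over 53 named loci. The locus named for Runx1, a transcription factor of blood cell formation, held 5 of them within its span on chromosome 11, the most of any locus. A span here covers all assembled transcripts of a locus. Whether the 5 lie in introns of the known gene was not tested. XLOC_011293, XLOC_011296, XLOC_011300 and XLOC_011302 were on the opposite strand and XLOC_011538 on the same strand. None overlapped an exon of Runx1. All 5 had 2 exons, and in 3 of them every intron was under 50 bp. Their exon sequence of 428 to 1144 bp was long for models of 2 exons, and XLOC_011296 (intron 44 bp) was shared as a whole by both assemblies. Among the 6 with exon overlap, XLOC_005631 (chromosome 5, 131312327 to 131315875, plus strand) had 2 introns, of 632 and 1081 bp, with exactly the ends of introns of Ermap, an erythroid membrane protein gene assembled on the minus strand. No other intron of a spliced new gene had a counterpart with the same ends on the other strand.

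Some spliced new genes lay beside each other. Within 10 kb of another one were 150 of the 713, in 65 runs, of which 50 were on 1 strand throughout. No such count was made for single-exon new genes or named genes. XLOC_001140 to XLOC_001143 followed each other on the minus strand of chromosome 1 (51889841 to 51917736) with gaps of 2, 58 and 173 bp. Together they had 23 exons and 3998 bp of exon sequence, and 3 of the 4 were in both assemblies. They lay between Smoc2, which encodes a secreted matrix-associated protein, and Phf10. Between these the GRCr8 annotation lists Thbs2, the matricellular thrombospondin 2, with Wdr27 and C1h6orf120. The longest run, XLOC_006628 to XLOC_006632, had 5 genes on the plus strand of chromosome 6 (93124342 to 93152763) with gaps from 1527 to 5543 bp. None was in both assemblies, and 3 were of the first and 2 of the second. The GRCr8 coding genes between its flanks Sgpp1 and Mthfd1 are Syne2, which encodes a giant nesprin, Esr2, which encodes estrogen receptor beta, and Tex21. The files do not assign the models to any of these.

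Named genes with a GRCr8 symbol at both sides were found for 701 spliced new genes. For 381 of them the GRCr8 annotation lists 10 or fewer genes between those symbols. A coding gene that had no transcript model under its name lay between them in 294 of the 381, a long noncoding RNA gene in 253, and neither in 41. No gene at all was listed in 24. A coding gene was listed for 73.0% of the new genes with 2 exons, 86.1% with 3 and 89.7% with 4 or more, and a noncoding gene for 67.8%, 61.1% and 66.7%. In 18 cases a coding gene stood alone there. Among these are XLOC_002188 between Fyb1 and Osmr, in the place of Rictor, a subunit of the mTOR complex, and XLOC_005671 with 4 exons between Trappc3 and Adprs, in the place of Col8a2, a collagen gene. XLOC_010548, XLOC_010549 and XLOC_010550 all lay between Nagpa and Ppl, in the place of Sec14l5. Loci with rCG names may hold some of these coding genes, so the counts describe the names and not the absence of the genes. No such share was computed for single-exon new genes or for other intervals. The counts and their change with exon number are therefore not shown to be particular to spliced new genes.

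The 701 genes fell into 484 such intervals, and 380 intervals held 1 each, whereas 9 held 5 or more (102 genes). The 2 fullest intervals are described here, chosen after their values were seen. Between Adam6 and Dync2i1 on chromosome 6 (130237990 to 134510241) lay 24 spliced new genes, 23 on the minus strand and 1 on the plus strand. All had 2 exons, 1 transcript and 1 intron of 80 to 117 bp (median 84 bp). Their first exon had a median of 74.5 bp (range 32 to 311 bp) and their second 285.5 bp (range 87 to 311 bp). In the 450 genes with 2 exons and 1 intron outside both intervals, the medians were 124 bp for the first exon, 656.5 bp for the intron and 130 bp for the second exon. GRCr8 lists 175 genes between Adam6 and Dync2i1, and 145 of them are V segments. As background, an immunoglobulin heavy chain variable gene has a short leader exon, a short intron and an exon for the variable domain, and plasma cells of the marrow transcribe it at a high level after rearrangement.

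The names of 6 of the 7 genes of this interval that both assemblies shared as whole transcripts are XLOC_007161, XLOC_007165, XLOC_007170, XLOC_007173, XLOC_007176 and XLOC_007196, with second exons of 259, 284, 305, 285, 304 and 248 bp. The other is XLOC_007202, with an intron of 84 bp and a second exon of 310 bp. The plus-strand model XLOC_006784 is the mirror of the rule, with a first exon of 311 bp and a second of 87 bp, and it overlaps XLOC_007169 on the minus strand. Whether these models are variable segments was not tested, as no sequence of them was analysed. V segments were listed between the flanks of 28 spliced new genes in all. Outside this interval these include 2 between Klhl6 and Cldn5 on chromosome 11 (introns of 108 and 122 bp) and 1 between Mta1 and Adam6 on chromosome 6 (intron of 94 bp).

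Between Rbm18 and Rc3h2 on chromosome 3 (15808447 to 19255260) lay 35 spliced new genes, the most of any interval, 26 of them on the plus strand. All had 2 exons, and 33 had no intron over 402 bp. The median first exon was 63 bp, the median second exon 281 bp and the median intron 184 bp. GRCr8 lists 71 genes between these flanks, of which 34 are olfactory receptors and 0 are V segments. In XLOC_003947 (19057095 to 19126523, minus strand), 2 transcripts of the first assembly were compact pairs of exons at separate places, and a further one joined distant exons across an intron of 26217 bp. The transcript of the second assembly joined exons at both of the compact places across an intron of 43099 bp. XLOC_003942 and XLOC_003312 had their right-hand end at the same base, 18007624, on opposite strands.

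Of the genes between Adam6 and Dync2i1, 7 of 24 (29.2%) were in both assemblies, and of those between Rbm18 and Rc3h2, 15 of 35 (42.9%). The count was 46 of 461 (9.98%) for the spliced new genes with 2 exons elsewhere. As whole transcripts 7 and 14 were shared, which is 21 of the 68 spliced new genes with a shared transcript, although these intervals hold 59 of the 713 genes (8.27%). Elsewhere 6.07% of those with 2 exons had a shared transcript.

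**Figure D5:**
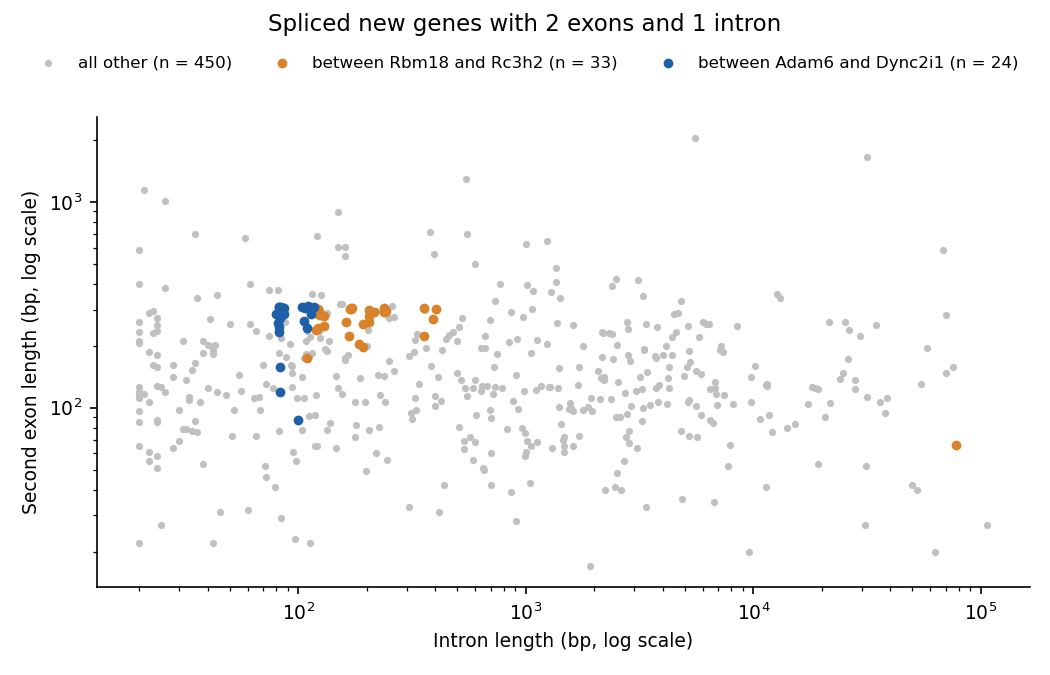
Length of the intron against length of the second exon in bp, both on log scales, for the 507 spliced new genes with 2 exons and 1 intron, 1 point per gene. The 24 genes between Adam6 and Dync2i1 (blue, introns 80 to 117 bp) and all but 1 of the 33 between Rbm18 and Rc3h2 (orange) form compact groups with second exons mostly near 285 bp, whereas all other genes (grey) spread over the plot.

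Spliced new genes were found on every chromosome, from 12 on chromosome 17 to 100 on chromosome 1. Per 100 named genes there were 5.79 in all, with the most on chromosome 6 (8.92) and chromosome 3 (8.34) and the fewest on chromosome 17 (3.30). Without the genes between Adam6 and Dync2i1, chromosome 6 had 4.72, and without those between Rbm18 and Rc3h2, chromosome 3 had 4.60. The labelled tissue was checked against markers. Transcript models were present for 11 of 12 osteoblast and osteocyte markers, among them Col1a1, Bglap and Sost, for 4 of 8 osteoclast markers, 6 of 8 of the myeloid marrow, 3 of 6 erythroid, 4 of 6 of skeletal muscle and 2 of 4 of cartilage. Models for marrow and muscle genes were thus present beside those of bone, and their part in the new genes was not tested. A marker was the nearest named gene of 2 spliced new genes. XLOC_008747, of the repeat class and the second assembly, lay 17913 bp upstream of Acp5, the tartrate-resistant phosphatase of osteoclasts. XLOC_002418 of the first assembly, with an intron of 10746 bp, lay 2410 bp tail to tail from S100a9, a calprotectin subunit of neutrophils.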

How the data were processed

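The authors sequenced total RNA from femurs and assembled transcripts with StringTie. The submitters' processing notes also list FastQC, HISAT2, featureCounts and the build rn4, without versions or roles. The genome build of the files is not given in the sources used here, and positions are given as in the files. Many loci carry rCG names, so rn4 may not be that build. The deposited annotation (positions and attributes of transcript models) and list of new genes hold no count, level or coverage, so no depth, OVX and SHAM comparison or test was possible.

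List starts were 0-based and were raised by 1. Introns are gaps between exons of a transcript, and each was counted once. Named genes are loci with a gene name that are not on the list. Assemblies were inferred from the order of transcript numbers. Sequences were assigned to chromosomes by gene symbols. GRCr8 (RefSeq) served for symbols, gene order and promoters only, and its order may differ from that of the files. Neighbour, distance and arrangement functions were tested on simulated data. Named are the spliced new genes with the most exons, transcripts and exon sequence, the longest and shortest introns, the longest spans and the nearest in each arrangement. All others named were chosen after their values were seen. The new genes and marker lists were chosen with earlier results of these data known. Alternatives changed the exon minimum, the distance, strand, overlap and intron rules. Python 3.11.15, numpy 2.4.6, scipy 1.17.1 and matplotlib 3.10.9 were used.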

Additional observations from a re-analysis of the deposited data

How the results depend on the processing

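Of 21 alternatives, 12 left a value within its 95% binomial interval (medians within the interval of their order statistics, counts within 1.5 times). The number of spliced new genes was 713, and became 193 when at least 3 exons were required and 68 with a spliced transcript in both assemblies. The median intron of 857 bp became 358 bp with transcripts of both assemblies only and 1013.5 bp with introns of 50 bp or more, a setting chosen after seeing the data. The share in both assemblies went from 20.2% to 39.4% with 3 or more exons. Overlap with named genes went from 10.2% to 0.842% for exons against exons. The classes on the list limit both kinds of overlap beforehand. The median distance of 16997 bp became 33402.5 bp on the same strand only, and the share within 5 kb of 27.2% became 11.25% within 1 kb and 38.9% within 10 kb. These alternatives keep fewer genes, introns or neighbours, or move the limit, by construction.

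Leaving out a replicate and the alternatives for OVX and SHAM were not run, since no file has a value per sample. No paired analysis was possible because the groups share no replicate number and the result comes from no test. Depth is unknown, so it is not known how far it limits what was found in 1 assembly.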
